A study of Mus musculus with 4 samples.

Results

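Toll-like receptors sense molecules of bacteria and viruses, and 10 genes of this system were followed here, 6 receptors (Tlr1, Tlr2, Tlr3, Tlr4, Tlr5 and Tlr7), the co-receptors Cd14 and Ly96, the adaptor Myd88 and the inhibitor Irak3. Every probe set that the platform annotation assigns to exactly 1 of these genes was taken, which gave 17 of the 45037 non-control probe sets on the array and all 10 genes. Of the 4 arrays, 2 carried RNA of mice fed soy protein isolate (SPI) and 2 RNA of mice fed the control protein casein (CAS). All of the mice carried the MMTV-Wnt1 transgene, in which the mouse mammary tumour virus promoter drives the Wnt1 ligand in the mammary gland, on the mixed background labelled B66SJL/HEV/J, so no array shows the diet effect without the transgene. The cells were the freshly sorted basal population of the mammary gland, which per the labels holds stem cells, myoepithelial cells and their progenitors. The animals' age is not given in the sources used here, and no label ties an array to an animal of its own, so p-values below measure the spread between arrays only, and that spread may be technical.

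A Toll-like receptor has an outer domain of leucine-rich repeats that meets the microbial ligand and an inner TIR domain that recruits adaptors. Tlr4 recognises bacterial lipopolysaccharide together with Ly96 (MD-2), which holds the lipid, and Cd14, which delivers it; Tlr2 pairs with Tlr1 or Tlr6 for bacterial lipopeptides, Tlr5 binds flagellin, and Tlr3 and Tlr7 read double-stranded and single-stranded RNA inside endosomes. Myd88 carries the signal of all of these receptors other than Tlr3 towards NF-kappaB, and Irak3 (IRAK-M) dampens it. In the mammary gland the pathway is best known from the response to bacteria in mastitis.

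The deposited values are log2 values centred per probe set on the median of the 4 arrays, so they show differences between arrays and no level. A coarse level class could still be read from the step size of the digits. Of the 17 member probe sets, 5 lay in the class 8 to 16 (probe sets of Tlr2, Tlr3, Tlr4, Cd14 and Myd88), 5 in the class 4 to 8 and 7 in the class 2 to 4. The array with the lowest value sets the class. Of 44 olfactory receptor probe sets, genes that mammary cells do not normally use, 9 also lay at 4 or above, so the class does not establish expression. As a check of the sorted population, 13 of 19 basal marker probe sets, those of Krt5 and Krt14 among them, lay in the class 8 to 16. In the same class were 5 of 16 luminal, 4 of 16 fibroblast, 3 of 25 macrophage, 2 of 13 endothelial and pericyte and 1 of 9 mast cell marker probe sets. Of all 45037 probe sets 9702 lay in that class, and of the 44 olfactory receptor probe sets 1 did. In such bulk RNA, fewer cells of a type and less RNA per cell cannot be told apart.

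Diet differences were tested with limma for all 45037 probe sets at once, SPI minus CAS, with Benjamini-Hochberg adjustment and a threshold of 0.05. Of all probe sets 1.5% passed, 1.25% lower and 0.249% higher in SPI. Of the 17 member probe sets 1 passed (5.88%), a Tlr4 probe set that fell. A difference below 0 was measured for 15 of the 17, where 19744 of all 45037 probe sets had one. The member median was -0.21, against 0.023 over all probe sets. An unadjusted p under 0.05 was reached by 8 members (47.1%), where 17.8% of all probe sets reached it. That contrast was absent with arrays centred on the hybridization controls, as given below. With the values as deposited, 4 members had a limma adjusted p under 0.10, against 3.51% of all probe sets. Of the 10 members at a level of 4 or above, fitted apart, 2 passed at 0.05, against 3.56%. These were another Tlr4 probe set, 1418163_at, and that of Ly96. The called Tlr4 probe set, in the class 2 to 4, is not among the 10. The diets did not overlap in 10 of 17 (58.8%, against 48.4%). Both SPI arrays lay below both CAS arrays in 9 of 17 (52.9%, against 20.5% of all probe sets) and above them in 1 (5.88%, against 27.9%). Probe sets of 1 gene share their transcript and are not independent, and no test was made of the list as a whole. The members were also chosen with earlier results of these data known, so these shares describe the chosen list only.

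**Figure D1:**
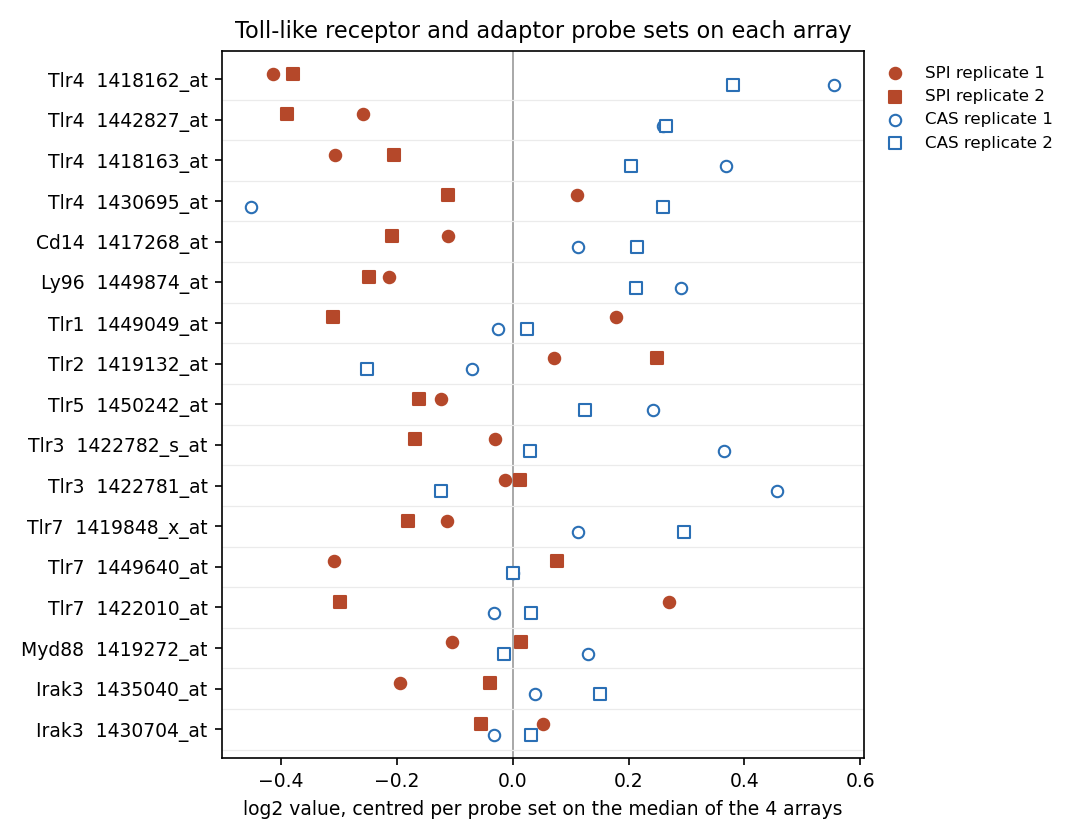
Centred log2 value (x axis) of each of the 17 member probe sets (rows) on each array, with SPI as filled and CAS as open symbols. The SPI and CAS symbols are separate in 3 of the 4 Tlr4 rows and in the Cd14, Ly96, Tlr2 and Tlr5 rows, with Tlr2 alone of these higher in SPI, and they overlap in the Tlr1 and Myd88 rows.

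The lipopolysaccharide receptor Tlr4 gave the clearest difference. Its probe set 1418162_at, in the low level class 2 to 4, read -0.41 and -0.38 on the SPI arrays, against 0.56 and 0.38 on the CAS arrays. Both SPI arrays were low and both CAS arrays high, with a gap of 0.76 between the groups. It was 1.82-fold lower in SPI, with a 95% interval of 1.55 to 2.14 and 2 arrays for each diet (limma adjusted p = 0.0266), and 0.944% of all probe sets had a difference as low or lower. The call did not hold with any array left out (limma adjusted p of 0.228 to 0.287) or with the replicate number as a block (limma adjusted p = 0.106). It did not hold with an ordinary t statistic either (adjusted p = 0.277), while the difference lay between -0.95 and -0.71 in the alternatives that hold this probe set by itself.

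The other Tlr4 probe sets were split. Probe set 1442827_at, also in the class 2 to 4, read -0.26 and -0.39 on the SPI arrays, against 0.26 and 0.27 on the CAS arrays. Its difference of -0.59 missed the threshold (limma adjusted p = 0.0508). Probe set 1418163_at, the Tlr4 probe set of the highest level class, read -0.31 and -0.20 in SPI, against 0.37 and 0.20 in CAS, a difference of -0.54 (limma adjusted p = 0.0769). In both, the groups did not overlap and the direction was that of the called probe set. The last, 1430695_at, again in the class 2 to 4, read 0.11 and -0.11 in SPI, against -0.45 and 0.26 in CAS. Its SPI values thus lay inside the CAS range. Its difference of 0.096 had an interval of -0.53 to 0.72. With 1 value per gene, Tlr4 passed both by its probe set of the highest class (-0.54, limma adjusted p = 0.0448) and as the mean of all 4 (-0.47, limma adjusted p = 0.0287).

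Ly96, the partner that completes the lipopolysaccharide receptor, read -0.21 and -0.25 on the SPI arrays, against 0.29 and 0.21 on the CAS arrays. The groups did not overlap, and the 2 arrays of each diet lay close together. The difference was -0.48 (95% interval -0.68 to -0.29, limma adjusted p = 0.0659), which missed the threshold in the fit of all probe sets. With 1 value per gene the same difference passed (limma adjusted p = 0.0329), where 3.61% of 18193 genes did and 2.84% were lower in SPI, and Tlr4 and Ly96 were the 2 of the 10 members that did. Cd14, the co-receptor anchored to the membrane, read -0.11 and -0.21 in SPI, against 0.11 and 0.22 in CAS. The groups again did not overlap, but the difference of -0.32 (95% interval -0.54 to -0.11) did not pass in either fit (limma adjusted p = 0.161 per probe set and 0.1 per gene).

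Tlr2 was the 1 member with both SPI arrays above both CAS arrays. Its probe set read 0.071 and 0.25 on the SPI arrays, against -0.071 and -0.25 on the CAS arrays, with a difference of 0.32 (95% interval 0.047 to 0.60) that did not pass (limma adjusted p = 0.226). The gap between the groups was 0.14, narrower than the spread within either diet. Within each array, Tlr4 (1418162_at) minus Tlr2 was -0.48 and -0.63 in SPI, against 0.63 and 0.63 in CAS, a change of -1.19 in their relation. An exact two-sided permutation test of it over the arrays gave p = 0.333, the smallest that 2 arrays against 2 allow, and the pair was chosen after its values were seen. Tlr1, which joins Tlr2 on lipopeptides, read 0.18 and -0.31 in SPI, against -0.025 and 0.025 in CAS. Here the CAS values lay inside the SPI range, and the difference was -0.066 (95% interval -0.50 to 0.37).

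Tlr5, the flagellin receptor, read -0.12 and -0.16 on the SPI arrays, against 0.24 and 0.12 on the CAS arrays. The groups did not overlap, but the difference of -0.33 (95% interval -0.53 to -0.12) did not pass (limma adjusted p = 0.153 per probe set and 0.0911 per gene).

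The receptors for RNA gave smaller or less even values. The Tlr3 probe set 1422782_s_at, of a kind that can bind related transcripts, read -0.030 and -0.17 in SPI, against 0.37 and 0.030 in CAS, without overlap (difference -0.30, limma adjusted p = 0.335). The other, 1422781_at, read -0.013 and 0.013 in SPI, against 0.46 and -0.12 in CAS, so SPI lay inside the CAS range. In both, CAS replicate 1 was the highest array, and without it the difference was 0.12 for 1422781_at and -0.13 for 1422782_s_at. Of the 3 Tlr7 probe sets, 1419848_x_at, which can also bind related transcripts, read -0.11 and -0.18 in SPI, against 0.11 and 0.30 in CAS (difference -0.35, limma adjusted p = 0.167). The other Tlr7 probe sets overlapped between diets, at -0.12 for 1449640_at and -0.014 for 1422010_at. For 1449640_at the SPI arrays read -0.31 and 0.077, while both CAS arrays held the same value, 0.

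Neither the adaptor nor the inhibitor passed the test. Myd88 read -0.11 and 0.015 on the SPI arrays, against 0.13 and -0.015 on the CAS arrays. The groups overlapped, and the difference of -0.10 had an interval of -0.34 to 0.13 (limma adjusted p = 0.626). It was -0.030 without CAS replicate 1 and -0.042 without SPI replicate 1. The Irak3 probe set 1435040_at read -0.20 and -0.038 in SPI, against 0.038 and 0.15 in CAS, a difference of -0.21 (limma adjusted p = 0.328). The other Irak3 probe set, 1430704_at, read 0.052 and -0.055 in SPI, against -0.031 and 0.031 in CAS, with a difference of -0.0015. Of the 17 intervals, 16 excluded a 2-fold difference in either direction (94.1%, against 98.1% of all probe sets), the exception being that of the called Tlr4 probe set.

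**Figure D2:**
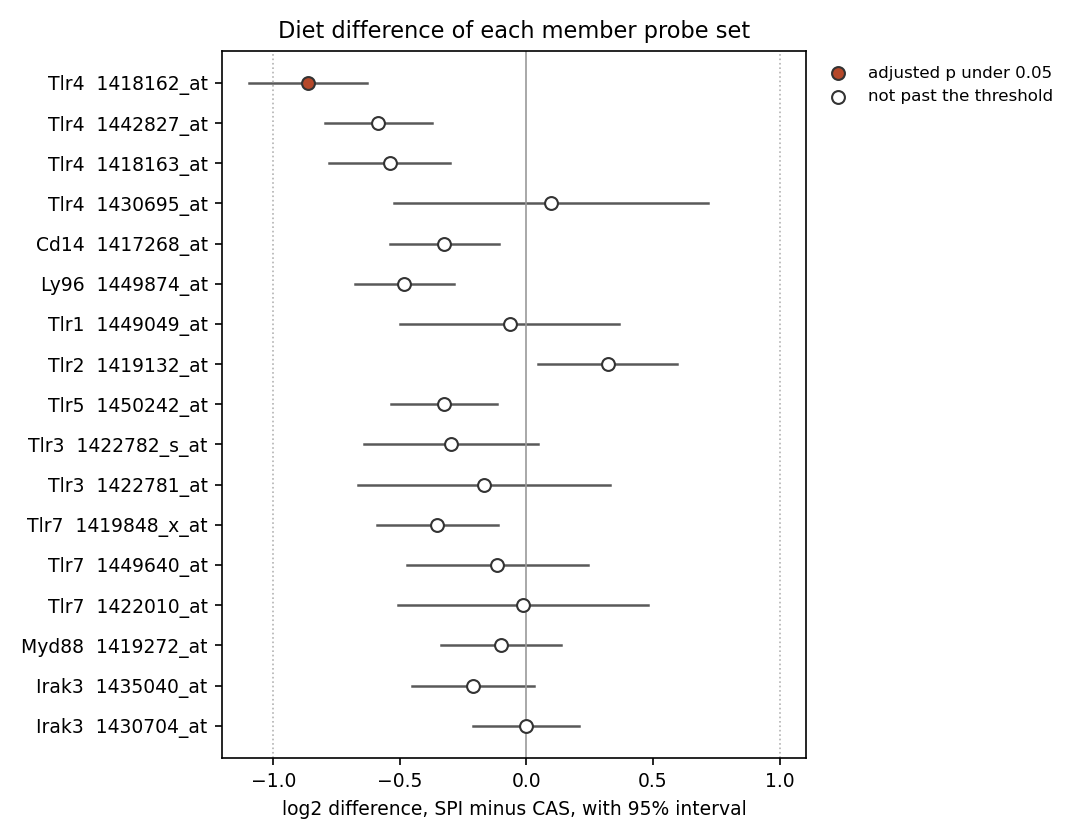
Log2 difference, SPI minus CAS (x axis), of each member probe set with its 95% limma interval, in order of role. The filled point, Tlr4 1418162_at at -0.86, passed the threshold, 9 of the 17 intervals span 0, and the dotted lines mark a 2-fold difference.

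Promoter sequences are shown for the 3 members whose promoter held a motif of factors that act in this pathway, a choice made after the values were seen: the kappaB motif of NF-kappaB or the core of the interferon-stimulated response element (ISRE), bound by interferon regulatory factors and STAT complexes. Each runs 5′ to 3′ along the gene's strand from 250 bases before to 50 bases after the start in RefSeq's table of GRCm38.p6, and capitals mark the motif matches.
Tlr2, chr3:83841559-83841858 (- strand): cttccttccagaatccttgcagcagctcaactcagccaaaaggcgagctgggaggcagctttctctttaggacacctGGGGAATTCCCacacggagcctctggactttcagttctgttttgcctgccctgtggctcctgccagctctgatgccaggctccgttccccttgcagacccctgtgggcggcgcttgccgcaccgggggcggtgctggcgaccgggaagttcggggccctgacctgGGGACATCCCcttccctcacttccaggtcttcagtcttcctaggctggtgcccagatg
Tlr3, chr8:45410331-45410630 (- strand): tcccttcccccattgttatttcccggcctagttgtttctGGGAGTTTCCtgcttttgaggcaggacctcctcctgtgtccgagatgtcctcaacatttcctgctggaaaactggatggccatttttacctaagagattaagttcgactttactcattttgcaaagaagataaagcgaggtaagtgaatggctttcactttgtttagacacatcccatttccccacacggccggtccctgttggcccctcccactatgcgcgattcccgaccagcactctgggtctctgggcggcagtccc
Myd88, chr9:119339969-119340268 (- strand): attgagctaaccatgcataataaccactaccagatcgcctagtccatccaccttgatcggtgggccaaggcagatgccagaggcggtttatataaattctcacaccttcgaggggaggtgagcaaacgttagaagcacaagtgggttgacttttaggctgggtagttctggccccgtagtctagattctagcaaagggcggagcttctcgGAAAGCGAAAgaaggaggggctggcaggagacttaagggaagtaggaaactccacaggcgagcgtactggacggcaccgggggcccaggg
The search covered both strands and the promoters of 6 members, Tlr1, Tlr2, Tlr3, Tlr5, Myd88 and Irak3, 8 promoters in all. The kappaB motif was found in 2 of the 8, where 4.51% of 32851 promoters held it, and the ISRE core in 1, where 3.44% did. Tlr2, the member with both SPI arrays above CAS, had kappaB matches at 2 places, a group of 3 overlapping matches that begins 173 bases before the start, and 1 match that spans the start. In that group, sense and antisense matches coincide in a palindrome that begins 172 bases before the start. In Tlr3 the match began 211 bases before the start, and in Myd88 the ISRE core began 40 bases before it. Of the inhibitor and target genes with a probe set that fell, 5 had a promoter in the table, 6 promoters in all, of which 4 held the kappaB motif. These were the promoters of Nfkbia, Il6 and Cxcl10 and 1 of the 2 of Tnfaip3, while that of Tnf and the other of Tnfaip3 held none. These genes were taken because they fell, and the genes of the same lists that did not pass were not counted apart. The 4 of 6 therefore cannot show whether the motif goes with the fall. A match describes these letters only and was not tested for binding.

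The other genes of the pathway were read from 8 lists with 60 of 69 genes measured, by 126 probe sets. Of these probe sets 8 fell (6.35%, against 1.25% of all probe sets), 2 rose (1.59%, against 0.249%) and 116 did not pass the test, with a median difference of -0.020 against 0.023 over all probe sets. None of the probe sets of the other Toll-like receptors passed in limma (0 of 6, with 0 at an unadjusted p under 0.05). Tlr12 was at 0.15 and 0.16, Tlr13 at 0.14, Tlr8 at 0.081, Tlr9 at 0.038 and Tlr6, the other partner of Tlr2, at -0.054. Their median of 0.11 lay on the other side of 0 from that of the 12 probe sets of the receptor members, -0.23. Tlr4 holds 4 of these 12 and Tlr7 holds 3. The members and lists were chosen with earlier results of these data known, so the contrast describes the chosen lists only and was not tested.

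Among the co-receptors and chaperones 0 of 11 probe sets passed in limma, with 4 at an unadjusted p under 0.05. All 3 probe sets of Cd36, a scavenger receptor that presents lipids to Tlr2, had differences below 0, between -0.54 and -0.35, without overlap of the diets. Cnpy3, a chaperone that lets Toll-like receptors leave the endoplasmic reticulum, was at 0.31, its partner chaperone Hsp90b1 at 0.15 and 0.073, and Cd180, a receptor homologue of B cells, at 0.14. Of 8 probe sets of the other adaptors 0 passed in limma, with 3 at an unadjusted p under 0.05. Pik3ap1 (BCAP), which links Toll-like receptors to PI3 kinase, read -0.31 and -0.66 on the SPI arrays, against 0.57 and 0.31 on the CAS arrays, for a difference of -0.93 (limma adjusted p = 0.073), while its other probe set was at -0.29. Sarm1, an inhibitory TIR protein, lay at 0.33, 0.22 and 0.12, Tirap, which bridges Tlr2 and Tlr4 to Myd88, at -0.20 and -0.094, and Ticam1 (TRIF), the adaptor of Tlr3, at 0.10.

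The signalling middle of the pathway did not pass at any point. Of 43 probe sets of kinases and ubiquitin ligases 0 passed in limma, with 7 at an unadjusted p under 0.05 and a median of -0.0097. These 7 are 16.3% of the list, near the 17.8% of all probe sets at that p. The smallest p belonged to probe sets of Ikbkb (-0.42), a kinase of the NF-kappaB inhibitor, Irak2 (-0.31), a kinase of the Myd88 complex, the ubiquitin ligase Traf6 (0.32) and Tbk1 (0.26), the kinase of Irf3. Of 8 probe sets of transcription factors 0 passed in limma, with 1 at an unadjusted p under 0.05, that of Irf7 (-0.56, limma adjusted p = 0.124). Irf7, a factor of type I interferon induction, read -0.34 and -0.17 in SPI, against 0.17 and 0.44 in CAS, without overlap. Rela, a subunit of NF-kappaB, was at -0.040, Irf5 at 0.12 and 0.072, and the 4 Irf3 probe sets between 0 and 0.085.

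The calls lay among the inhibitors, the targets and the ligands, and were 0 with any 1 array left out and 1 with the replicate number as a block. With arrays centred on the hybridization controls, 1 probe set of the other adaptors also fell, and 1 of them and 1 of the co-receptors and chaperones rose. Of 14 probe sets of other inhibitors 2 fell and 0 rose, those of Tnfaip3 (A20), which removes ubiquitin from the signalling complex, and Nfkbia, which holds NF-kappaB in the cytoplasm. Tnfaip3 (1433699_at) read -0.34 and -0.38 on the SPI arrays, against 0.36 and 0.34 on the CAS arrays, and was 1.64-fold lower (limma adjusted p = 0.0259). Nfkbia (1448306_at) read -0.28 and -0.38 in SPI, against 0.28 and 0.35 in CAS, and was 1.56-fold lower (limma adjusted p = 0.0408). The second Tnfaip3 probe set (-0.36) and the other 4 of Nfkbia (-0.57 to -0.27) did not pass. Both genes are also NF-kappaB targets. Sigirr, a decoy-like TIR receptor, was at -0.43 (limma adjusted p = 0.0748) and Zc3h12a, which degrades cytokine transcripts, at -0.20 and -0.14. The median of this list was -0.31.

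Of 19 probe sets of 13 genes that Toll-like receptor signals induce, 4 fell and 0 rose, those of Cxcl10, Ccl5, Il6 and Tnf, at -1.45, -1.37, -1.20 and -1.10. Il1b (-0.021), Ifnb1 (-0.082), Ccl2 (0.036), Cxcl2 (0.21) and Ptgs2 (-0.63 and 0.12), added after their values were seen, did not pass. In Cxcl2 and the second Ptgs2 probe set both SPI arrays lay above both CAS arrays. These were the 2 of the 19 in that order, and 12 had both SPI arrays below. The median was -0.25. Of 17 probe sets of endogenous ligands 2 rose and 2 fell, around a median of 0.0095. The matrix proteoglycan Vcan had 2 of 8 probe sets that rose. Probe set 1427256_at read 0.41 and 0.40 in SPI, against -0.40 and -0.45 in CAS, and 1427257_at had a difference of 0.66. The other Vcan probe sets did not pass and lay between -0.22 and 0.49. In the lowest, 1433043_at, both SPI arrays lay below both CAS arrays. Tnc, a matrix glycoprotein that activates Tlr4, was 1.71-fold lower through 1416342_at (limma adjusted p = 0.0247) and at -0.030 through its other probe set. Saa3, an acute-phase protein, was 1.65-fold lower (limma adjusted p = 0.0413), and S100a8, a Tlr4 ligand of neutrophils, was at -0.49 (limma adjusted p = 0.136).

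**Figure D3:**
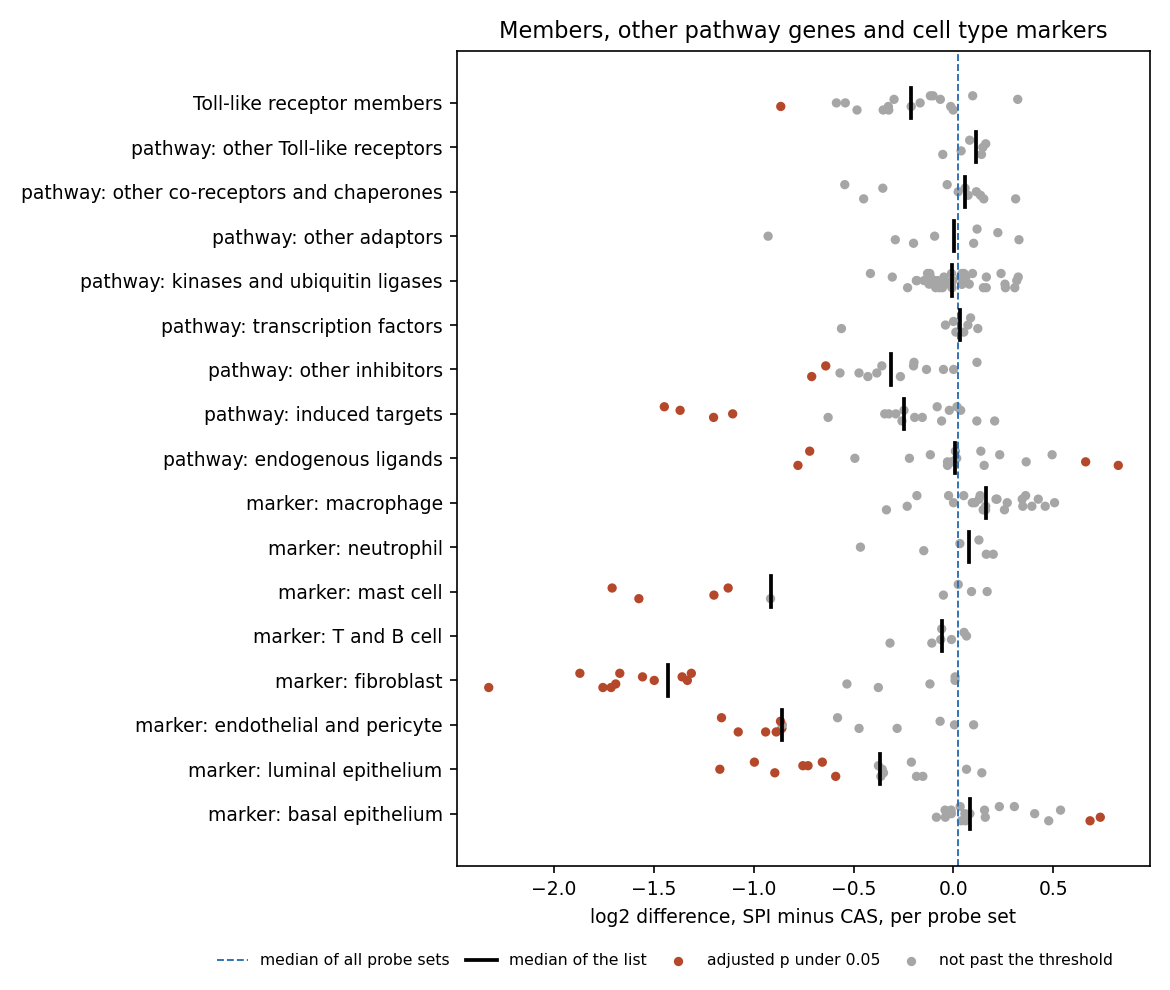
Log2 difference, SPI minus CAS, of every probe set (points) of the members, the other pathway lists and the cell type markers, with the median of each list (black bar) and of all probe sets (dashed line). The member median of -0.21 lies between those of the fibroblast markers (-1.43) and the macrophage markers (0.16), and the called pathway probe sets sit in the lists of inhibitors, targets and ligands.

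Markers of other cell types that can carry Toll-like receptors were read on the same arrays. Of 25 macrophage marker probe sets 0 passed in limma (8 at an unadjusted p under 0.05), 21 had a difference above 0 and the median was 0.16. Their mean value was 0.022 and 0.11 on the SPI arrays, against -0.16 and -0.042 on the CAS arrays, the opposite order to that of Tlr4, Ly96 and Cd14 and the order of Tlr2. C1qc was at 0.42, Cd68 at 0.51, Adgre1 at 0.34, the 3 Csf1r probe sets between -0.024 and 0.35, and Ptprc, the marker of all leukocytes, at 0.22 and 0.15. Below 0 in the same list, and named after their values were seen, were Cd163 (-0.34, with both SPI arrays below both CAS arrays), Mrc1 (-0.23) and Fcer1g (-0.18). The 6 neutrophil marker probe sets had a median of 0.080 and the 7 of T and B cells one of -0.059, with 0 past the threshold in limma in both (0 and 1 at an unadjusted p under 0.05). Csf3r, Elane, Ms4a1 and Cd79a, the genes of smallest p there, were at -0.47, 0.20, -0.32 and 0.065.

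Some markers of stromal, mast and luminal cells fell, each share to be read against the 1.25% of all probe sets. Of 16 fibroblast marker probe sets 11 fell and 0 rose, with a median of -1.43 and mean values of -0.60 and -0.60 in SPI, against 0.53 and 0.66 in CAS. Lum was at -2.32, Dpt at -1.75 and Col1a1 at -1.71 and -1.69, while Dcn (-0.12 and 0.0080) did not pass. Of 13 endothelial and pericyte marker probe sets 6 fell and 0 rose (median -0.86, mean values -0.25 and -0.37 in SPI, against 0.33 and 0.27 in CAS), with Cdh5 at -0.94, Rgs5 at -1.08 in its probe set of smallest p and Pecam1, which did not pass, at -0.47. Of 9 mast cell marker probe sets 4 fell and 0 rose, among them Cpa3 (-1.57) and Mcpt4 (-1.71), while Tpsb2 (0.17 and 0.090) and Ms4a2 (-0.050 and 0.024) did not pass. Of 16 luminal marker probe sets 7 fell and 0 rose (median -0.37), with Ehf at -1.17, Krt18 at -0.73 and the 3 Krt8 probe sets, none past the threshold, between -0.38 and -0.35. Dcn, Tpsb2 and Ms4a2 were named after their values were seen. Of 19 basal marker probe sets 2 rose, Oxtr at 0.68 and Krt15 at 0.73, and 0 fell, with Krt5 at -0.042 and Krt14 between -0.012 and 0.48. The part of these cell types in the Tlr4, Ly96 and Cd14 differences was not tested.

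**Figure D4:**
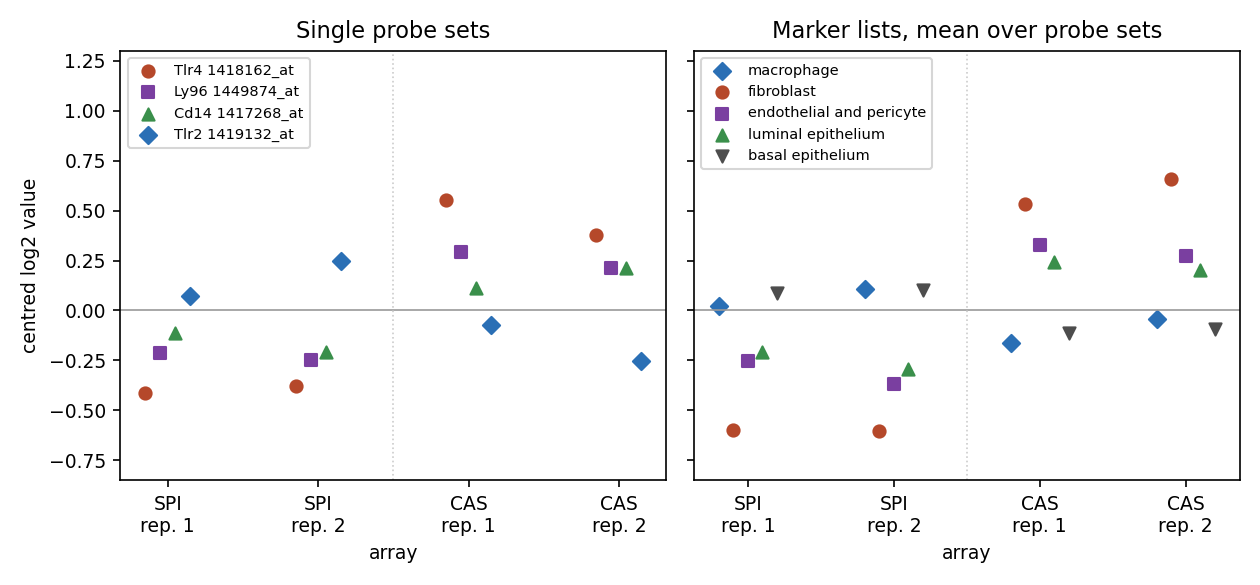
Left, centred log2 value (y axis) of 4 probe sets on each array (x axis, SPI left of CAS); right, the mean value of 5 cell type marker lists on the same arrays and scale. Tlr4, Ly96 and Cd14 are below 0 on both SPI arrays and above 0 on both CAS arrays, as the fibroblast, endothelial and pericyte, and luminal means are, while Tlr2 and the macrophage and basal means lie the other way round. The centring puts any probe set whose diets do not overlap on either side of 0. Of all probe sets 20.5% lie in the first order and 27.9% in the other. For Tlr4 the probe set of smallest p is shown.

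The choice of zero bears on the small differences. The bacterial and phage hybridization controls, added in fixed amount, averaged -0.038 and -0.11 on the SPI arrays, against 0.031 and 0.13 on the CAS arrays. With arrays centred on them every difference moves up by the same 0.16, which puts the median of all probe sets at 0.18 and that of the members at -0.056. Of the 17 member probe sets 10 then lay below 0, where 15 do without it. Small differences below 0 must change sign under such a shift, here those of Tlr1 (0.090), Myd88 (0.053), the Tlr7 probe sets 1449640_at (0.040) and 1422010_at (0.14) and the Irak3 probe set 1430704_at (0.15). Tlr4 1418162_at was at -0.71 and passed (limma adjusted p = 0.0197), Ly96 was at -0.33, Cd14 at -0.17 and Tlr2 at 0.48 (limma adjusted p = 0.072). An unadjusted limma p under 0.05 was then reached by 5 of the 17 members, where 13756 of all 45037 probe sets reached it. Without the centring these counts were 8 and 8006. Under the same centring the calls over all probe sets were 1557 higher and 704 lower in SPI, where they are 112 and 564 without it. The medians of the kinases (0.15), of the T and B cell markers (0.096) and of all pathway probe sets (0.14) then lay above 0, those of the other inhibitors (-0.16), the induced targets (-0.092) and the fibroblast markers (-1.27) below it, and 5 macrophage and 5 basal marker probe sets passed as higher in SPI.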

How the data were processed

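RNA of sorted mammary basal cells was measured on 4 Affymetrix arrays, 2 SPI and 2 CAS. The deposited values are log2 expression values that the authors made with GCOS and RMA, per the submitters' processing notes, in which no version was given. Each probe set's 4 values had a median within 5e-07 of 0, which means that they were also centred; no label mentions this. Of 45101 probe sets, 64 controls were left out. Of the other 45037, 34945 mapped to exactly 1 gene, 932 to several and 9160 were not listed in the platform annotation. Symbols were updated through gene IDs with a GRCm38.p6 table, which matched 34741 of the 34945.

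One limma model (version 3.58.1, R 4.3.3, functions lmFit and eBayes) compared SPI with CAS over the 45037 probe sets, without a block or an intensity trend, with 2 residual and 3.11 prior degrees of freedom and two-sided p-values. Intervals are 95% intervals of that model, and the number of arrays limits the precision. Level classes use the step of single-precision numbers before centring. The script was also tested on simulated data, in 5 runs with 200 changed probe sets each. It called 0 of 335 log2 changes of 0.585, 175 of 335 of 1 and 305 of 330 of 2. In the arrays themselves the smallest absolute log2 difference among called probe sets was 0.53. A gene that did not pass may therefore still differ. Named genes were all members, the 4 genes of smallest p of each pathway list, the 2 of each marker list, and 8 defining markers. The members and lists were chosen with earlier results of these data known. Alternatives covered the replicate block, each array left out, array centring, the level filter, 1 value per gene, the test and the threshold. Protein sequences were not used here, nor were the promoters of Tlr4, Tlr7, Cd14 and Ly96.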

Additional observations from a re-analysis of the deposited data

How the results depend on the processing

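Of 17 member probe sets 1 passed as reported. The count was 0 with the replicate number as a block and by an ordinary t statistic, and 0 to 0 with each array left out in turn, fits in which a lone array is assumed to vary like the other diet. At an unadjusted p under 0.05 the block fit had 8 member probe sets and the ordinary t statistic 6, where 6300 and 6084 of all 45037 did. The count was 2 with arrays centred on their median, at level 4 or above, with only probe sets of exactly 1 gene and with 1 value per gene, 3 with a trend over the level class and 4 at a threshold of 0.10. Every member call in these fits was of Tlr4 or Ly96. The 10 pathway calls became 1 with the block, 0 by the ordinary t statistic and 0 to 0 without 1 array, with 37, 38 and 28 to 33 at an unadjusted p under 0.05, and 17 at the threshold of 0.10. Over all probe sets the 676 calls became 79 with the block, 1 by the ordinary t statistic, 0 to 0 without 1 array (4882 to 6513 at an unadjusted p under 0.05), 1048 at level 4 or above, 1250 with the trend, 1579 at 0.10 and 2261 after centring on hybridization controls, of which 1557 were higher. The cause of these shifts was not tested, beyond the fewer arrays or probe sets that some fits hold.

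Among repeats of single member differences 178 kept direction and call, 11 gained a call, 6 lost one and 14 changed sign, each from a difference that had not passed. Centring on hybridization controls adds 0.16 to every difference, which by construction turned the sign for Tlr1 (0.090), Tlr7 1449640_at (0.040) and 1422010_at (0.14), Myd88 (0.053) and Irak3 1430704_at (0.15). Without 1 array the values ranged from -0.31 to 0.18 for Tlr1, from -0.46 to 0.12 for Tlr3 1422781_at, from -0.26 to 0.45 for Tlr4 1430695_at, from -0.31 to 0.077 for Tlr7 1449640_at, from -0.30 to 0.27 for Tlr7 1422010_at from -0.055 to 0.052 for Irak3 1430704_at, from -0.47 to -0.13 for Tlr3 1422782_s_at, from -0.17 to -0.030 for Myd88 and from -0.29 to -0.13 for Irak3 1435040_at. The replicate numbers gave no sign of pairing, with a correlation of -0.099 between the gaps of the 2 diets across all probe sets. That value cannot show that the replicates were unpaired, so the block result stands as calls that did not hold. The block fit has 1 residual degree of freedom, where the main fit has 2.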
